A study of Caenorhabditis elegans with 24 samples.

Results

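Rescued animals and wildtype animals of *Caenorhabditis elegans* were compared after 3 h at 37°C, with 4 libraries of each chosen by genotype and temperature in the sample titles, which are 8 of the 24 libraries of the series. Wildtype animals were N2 (Bristol). Rescued animals (strain LRL147) carried the *hlh-30(tm1978)* mutation and a transgene, in which the neuronal *rab-3* promoter drives HLH-30 tagged with GFP and 3XFLAG ahead of the *rab-3* 3′UTR, and *unc-122p::RFP*, a coelomocyte marker injected to select carriers. The strain is 1 transgenic line, so what belongs to neuronal HLH-30 and what belongs to the line, including the loss of *hlh-30* outside neurons, cannot be told apart in these 2 groups. All animals grew at 20°C on *E. coli* OP50, were moved to 37°C on day 1 of adulthood, and were pooled as whole worms in large cultures. The replicates were independent cultures. Rescued and wildtype animals kept at 20°C, and *hlh-30(tm1978)* mutants at 37°C, are set beside them below, and all these groups had 4 libraries except wildtype at 20°C, with 3 used.

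HLH-30 is the worm orthologue of TFEB, a basic helix-loop-helix transcription factor that drives genes of autophagy and of the lysosome in mammals and worms, and that moves into the nucleus under starvation and heat. Heat stress at 37°C also calls up the heat shock response, in which HSF-1 turns on chaperone genes such as the *hsp-16* family. The intestine, the largest somatic tissue of the worm, carries out digestion, stores fat and makes the yolk proteins that oocytes take up. The comparison asks how the transcriptome of heated animals with HLH-30 only in neurons differs from that of heated wildtype animals.

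The 4 wildtype libraries held 11207383, 28091186, 25476551 and 25764335 counts on genes, and the 4 rescued libraries 11661889, 13236450, 23184409 and 12612742. Thus 3 wildtype and 1 rescued library were about as deep as each other and deeper than the rest, and neither the labels nor the methods name a sequencing batch. Depth class as a term in the fit gave 4877 calls, of which 4431 were shared in direction with the fit without it. Genes encoded by mitochondria took 3.95 to 4.92% of the counts in wildtype and 2.76 to 3.65% in rescued libraries. The wildtype libraries themselves fell into pairs, replicates 1 and 2 against 3 and 4, and counts that moved by over 1.5 times without one pair are given without it below.

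The genotype labels held for the genes of the transgene. *hlh-30* (WBGene00020930, minus strand of chromosome IV, 4014799 to 4028127, WBcel235) was counted at 17.3, 20.5, 15.5 and 17.2 CPM (counts scaled for library size with edgeR's TMM factors) in wildtype replicates 1 to 4 and at 24.4, 27.1, 50.9 and 24.7 CPM in rescued replicates 1 to 4, without overlap. Rescued replicate 3 stood above the other 3 rescued libraries. The log2 fold change was 0.79 (SE 0.24, adjusted p = 0.0214 over 13482 genes), and without wildtype replicates 3 and 4 the adjusted p was 0.0528. In heated *hlh-30(tm1978)* mutants the gene was still counted at 4.19 to 7.88 CPM. *rab-3*, a synaptic vesicle GTPase whose 3′UTR the transgene carries, was counted at 0.813, 1.16, 3.99 and 2.62 CPM in wildtype and 16.7, 15, 24.8 and 18.7 CPM in rescued libraries (log2 fold change 3.03, SE 0.39, adjusted p = 0.000227). The counts do not separate transcripts of the transgene from those of the *hlh-30* and *rab-3* genes. *unc-122*, the coelomocyte gene whose promoter drives the RFP marker, was at 0.508 to 1.38 CPM in wildtype and 1.75 to 3.80 CPM in rescued libraries (log2 fold change 1.23, SE 0.38, adjusted p = 0.0231), a call lost without rescued replicate 3 (adjusted p = 0.0817) or wildtype replicate 4 (adjusted p = 0.063). In exact 2-sided permutation tests of log2 CPM each of these 3 genes had p = 0.0286, the smallest that 4 libraries against 4 can give.

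Of the 13482 genes tested, 2453 (18.2%) were higher and 2956 (21.9%) were lower in rescued than in wildtype animals at 37°C, together 5409 (40.1%). A call needed an adjusted p under 0.05 by the quasi-likelihood test of edgeR and the adjustment of Benjamini and Hochberg, as for every adjusted p here. Counts of called members of a gene list below are to be read beside these shares, 18.2% higher and 21.9% lower. Among all calls, 1286 were more than 2-fold higher and 1290 more than 2-fold lower, and 280 and 210 passed 4-fold. The median log2 fold change was 1.04 among genes called higher, -0.92 among genes called lower and -0.04 over all genes tested. The levels of the 2 groups did not overlap for 5154 of the 13482 genes (38.2%), so a lack of overlap was common. The balance between the directions depends on the scaling: 45.4% of the calls were higher with TMM, and 65.7% (3705 higher and 1931 lower) with library size only, which moved the median of all genes by 0.231 on the log2 scale. Without wildtype replicates 1 and 2 there were 2323 higher and 2628 lower genes, and without replicates 3 and 4 there were 3233 and 2721. Heated *hlh-30(tm1978)* mutants, compared with the same wildtype libraries, had 103 calls (0.764%), and compared with the same rescued libraries 4965 (36.8%).

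**Figure D1:**
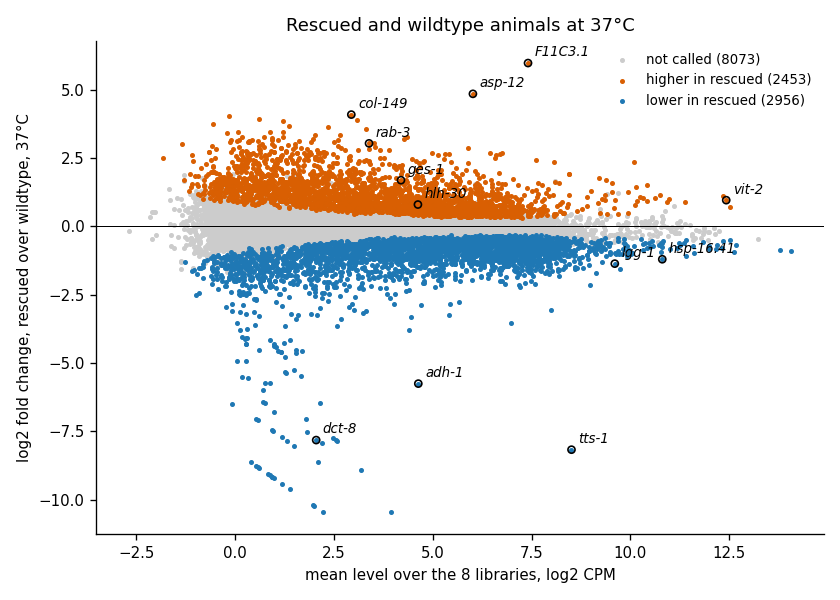
Each point is 1 of the 13482 genes, with the mean level over the 8 libraries (log2 CPM) on the x axis and the log2 fold change of rescued over wildtype at 37°C on the y axis. Orange and blue points are the 2453 genes called higher and the 2956 called lower, and the circled genes are named in the text, from *F11C3.1* at 5.97 to *tts-1* at -8.17.

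Genes of the intestine were higher in heated rescued animals. All 7 intestine markers were called higher (log2 fold changes 1.29 to 1.68, median 1.59), against 18.2% of all genes. *elt-2*, the GATA factor that specifies the intestine, was at 3.56, 3.25, 5.15 and 3.99 CPM in wildtype and 12.9, 13.4, 12.5 and 11.3 CPM in rescued libraries, so every rescued library was above every wildtype library. The log2 fold change was 1.59 (SE 0.19, adjusted p = 0.000156). *ges-1*, the gut esterase, was at 7.12, 6.53, 11.3 and 8.79 CPM in wildtype against 30.4, 30.2, 24.1 and 28.3 CPM in rescued animals, or 3.21-fold higher (log2 fold change 1.68, SE 0.19, adjusted p = 0.000106). *act-5*, the actin of intestinal microvilli, was at 26.1 to 52.9 CPM in wildtype and 103 to 151 CPM in rescued animals (log2 fold change 1.62, SE 0.22). The other 4 markers, described because the whole list is given, were *asp-1*, an aspartyl protease (1.62), *pept-1*, an oligopeptide transporter (1.47), *ifb-2*, an intermediate filament of the terminal web (1.41), and *cpr-6*, a cathepsin B-like protease (1.29). The groups did not overlap for any of these 4, which was also so for 38.2% of all genes. The summed level of the 7 markers was 419.5 to 779.5 CPM in wildtype, 387.9 to 684.3 CPM in *hlh-30(tm1978)* mutants and 1400 to 1760 CPM in rescued animals at 37°C. All 7 kept the call without either pair of wildtype libraries. In RNA of whole animals, more cells of a type and more RNA per cell cannot be told apart.

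The same markers did not separate the genotypes at 20°C, where 0 of 7 were called (median log2 fold change -0.36) in a comparison with 12.9% of all genes called. The difference between the temperatures was itself tested in a model of all 6 groups, in which 329 of 13482 genes (2.44%) had a larger and 85 (0.63%) a smaller rescued minus wildtype log2 difference at 37°C, with larger meaning more positive. Of the 7 intestine markers 6 were called larger at 37°C, *asp-1* (adjusted p = 0.12) being the exception. *ges-1* fell from 61.1 ± 13.2 (SD, n = 3) to 8.43 ± 2.122 CPM (n = 4) in wildtype, and in rescued animals it was at 48.6 ± 23.3 CPM at 20°C and 28.3 ± 2.93 CPM at 37°C (n = 4 each). The difference between these changes was 2.07 on the log2 scale (SE 0.36, adjusted p = 0.00445). For *elt-2* the difference was 2.03 (adjusted p = 0.0154), with 19 and 3.99 CPM in wildtype at 20°C and 37°C and 14.55 and 12.5 CPM in rescued animals. The median change with heat over the 7 markers was -3.03 in wildtype and -1.06 in rescued animals. The number called larger ranged from 2, without wildtype replicate 4 at 20°C, to 7 over the alternatives tried, and the sign was positive for all 7 in each of them.

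**Figure D2:**
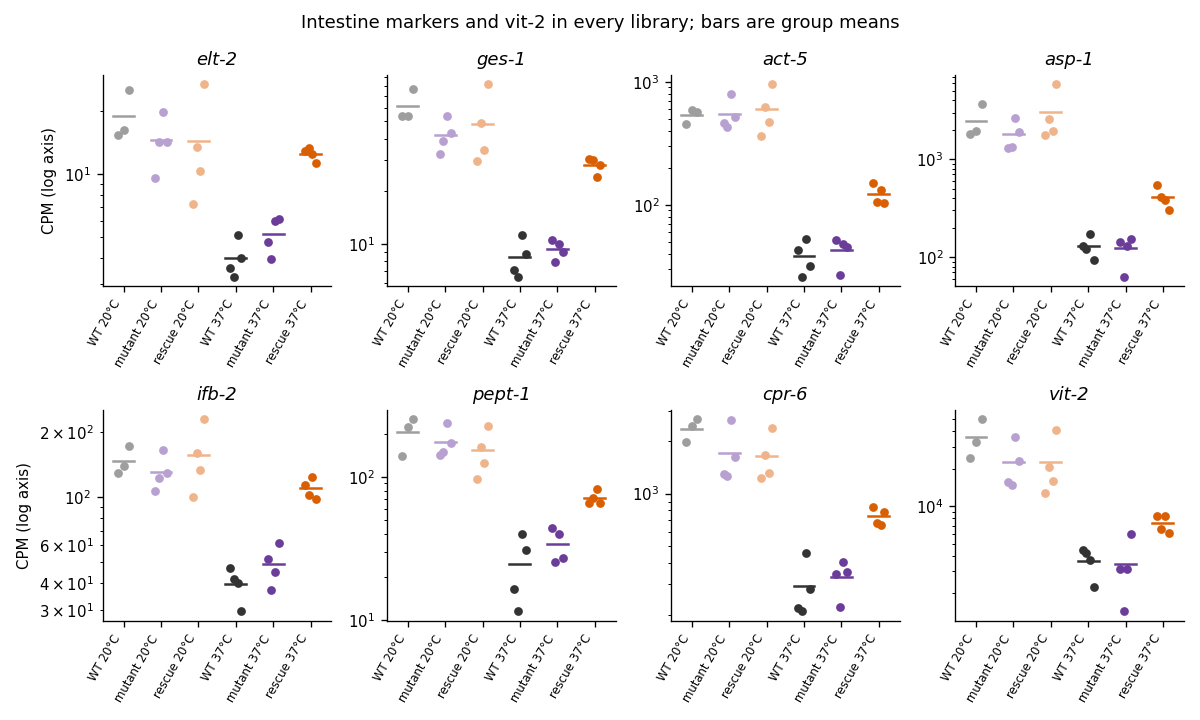
CPM on a log axis for the 7 intestine markers and the yolk protein gene *vit-2* in all 23 libraries used, with 1 point a library and bars at group means. At 37°C the rescued libraries of each of these genes lie above all 4 wildtype libraries, and at 20°C the groups overlap.

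Yolk protein genes, which the adult intestine transcribes, moved in the same direction. All 6 were called higher at 37°C (median log2 fold change 0.94). *vit-2* was at 4417, 4181, 3672 and 2254 CPM in wildtype and 8333, 6569, 8359 and 6152 CPM in rescued libraries (log2 fold change 0.95, SE 0.23, adjusted p = 0.00764). *vit-6* was at 2231 to 3572 CPM in wildtype and 6038 to 8524 CPM in rescued animals (1.11, SE 0.21, adjusted p = 0.00191). Neither gene overlapped between the groups, and all 6 kept the call without either wildtype pair. At 20°C the 6 genes had a median of -0.76, with 1 called lower, and the difference between temperatures was called for *vit-4* alone (1.88, adjusted p = 0.0447), a count that ran from 0 to 6 over the alternatives.

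Lysosomal hydrolases and subunits of the proton pump, the classical targets of TFEB in mammals, were mostly higher. Of 44, 26 were called higher (59.1%, against 18.2% of all genes) and 4 lower, with a median of 0.59. At 20°C 2 were called higher and 5 lower (median 0.115), in a comparison with 12.9% of all genes called. The difference between temperatures was called larger at 37°C for 4 of the 44, against 2.44% of all genes, and smaller for 0. This list shares *asp-1* and *cpr-6* with the intestine markers. *asp-13*, an aspartyl protease, was at 17.5, 17.9, 26 and 15.5 CPM in wildtype and 103, 96.8, 106 and 92.6 CPM in rescued animals (log2 fold change 2.31, SE 0.17, adjusted p = 2.69e-05). *asp-2*, of the same family, was at 97.5 to 232 against 474 to 666 CPM (1.90), and *vha-6*, the pump subunit of the intestine's apical membrane, at 38.8 to 104.2 against 195 to 224 CPM (1.73). In the opposite direction, *aman-1*, a mannosidase, was at 20.9, 28.1, 34.5 and 29.9 CPM in wildtype and 2.73, 4.44, 5.43 and 3.59 CPM in rescued animals (log2 fold change -2.85, SE 0.23, adjusted p = 3.18e-05). *hex-1*, a hexosaminidase, was at 163 to 389 against 52.3 to 71.0 CPM (-2.08). Both were lower at 20°C too (-2.67 and -1.64). In heated mutants 0 of the 44 were called against wildtype, with a median of 0.09, in a comparison with only 0.764% of all genes called. Of the 6 lysosomal lipases tested, *lipl-3* was called higher (1.65) and *lipl-2* lower (-2.25).

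Of autophagy genes, the other classical TFEB targets, 13 of 29 were called lower and 1 higher and 15 were not called, with a median log2 fold change of -0.48. *lgg-1*, the worm orthologue of Atg8/LC3, was at 1127, 1031, 1146 and 1134 CPM in wildtype and 438, 488, 382 and 482 CPM in rescued libraries, or 2.58-fold lower (log2 fold change -1.37, SE 0.13, adjusted p = 6.05e-05). The groups lay far apart and each was tight. *atg-10*, the conjugating enzyme for ATG12, was at 9.89 to 12.34 against 2.37 to 3.97 CPM (-1.93), and *sqst-1*, the p62 orthologue, at 97.3 to 151 against 50.2 to 81.6 CPM (-1.02). The 1 gene called higher was *vps-34*, the lipid kinase of phagophore formation, at 48.2 to 52.8 against 70.3 to 108.4 CPM (0.71, SE 0.14, adjusted p = 0.00273). *lgg-1* was lower at 20°C as well (-0.99, adjusted p = 0.00404), and its mean was 676 CPM in heated mutants. With library size only, 9 were lower and 3 higher, and without wildtype replicates 1 and 2 there were 9 lower and 1 higher.

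Of the partners of HLH-30 and genes of nutrient sensing 3 of 18 (16.7%) were higher and 4 (22.2%) lower, close to the 18.2% and 21.9% of all genes, and 7 were lower without wildtype replicates 3 and 4. *aak-1*, a catalytic subunit of AMP-activated kinase, was at 16.19 to 20.5 CPM in wildtype and 46.7 to 54.8 CPM in rescued animals (log2 fold change 1.38, SE 0.14, adjusted p = 6.32e-05). It lies on chromosome III between 8.2 and 8.8 Mb, where 72 of 119 genes were called higher, and it was higher at 20°C too (1.15). *flcn-1*, the folliculin orthologue, was called higher (0.88), and so was *mxl-3* (0.69), a Max-like repressor of lipase genes. *mxl-1*, a Max orthologue, was at 142.5 to 165 against 45.3 to 72.4 CPM (-1.32), and its partner *mdl-1* (-0.58), the Rag GTPase *ragc-1* (-0.56) and the TOR activator *rheb-1* (-0.67) were lower.

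The transgene is expressed in neurons, and of the genes of transmitter and neuropeptide release 10 of 24 were called higher and 2 lower (median log2 fold change 0.69), while 12 were not called. *unc-13*, which primes synaptic vesicles, was at 8.24, 8.97, 7.76 and 6.69 CPM in wildtype and 13.8, 14.4, 21.9 and 12.14 CPM in rescued animals (log2 fold change 0.92, SE 0.21, adjusted p = 0.00601). *unc-25*, which makes GABA, was at 1.31 to 2.34 against 4.43 to 7.62 CPM (1.66), and *eat-4*, the glutamate transporter of vesicles, at 0.323 to 0.843 against 1.67 to 2.82 CPM (2.0). *unc-104*, the kinesin of synaptic vesicle precursors (1.07), and *egl-21*, a peptide-processing carboxypeptidase (1.08), were also higher without overlap. The fusion proteins *snb-1*, synaptobrevin (-0.58), and *unc-64*, syntaxin (-0.45), were lower, *unc-64* losing its call without wildtype replicate 4 (adjusted p = 0.0562) and without replicates 3 and 4 (adjusted p = 0.0584). *unc-31*, needed for dense core vesicle release, was at 2.78 to 4.17 against 2.14 to 3.89 CPM and was not called (-0.14, adjusted p = 0.71). Among the 9 neuron markers tested, which share genes with this list, 3 were higher and 2 lower, and their summed level overlapped between wildtype (259.0 to 298.8 CPM) and rescued animals (223.8 to 261.6 CPM). At 20°C 7 of the 24 release genes were called higher and 1 lower (median 0.78), in a comparison with 12.9% of all genes called. The difference between temperatures was called for 0 of the 24. Of all genes only 2.44% were called larger and 0.63% smaller at 37°C, so this count says little. Of the FLP and NLP neuropeptides 9 of 72 (12.5%) were higher, such as *flp-15* (2.93), and 11 (15.3%) lower, such as *nlp-51* (-3.29), both below the shares over all genes.

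Heat shock genes were induced in both genotypes, and the 2 most abundant genes of the *hsp-16* family reached a lower level in rescued animals. *hsp-16.41* was at 2729, 2948, 2179 and 1999 CPM in heated wildtype and 922, 1420, 1063 and 1059 CPM in heated rescued libraries (log2 fold change -1.21, SE 0.19, adjusted p = 0.000732), against means of 1.38 and 2.2 CPM at 20°C. *hsp-16.2* was at 1568 to 2137 against 944 to 1453 CPM (-0.72, SE 0.18, adjusted p = 0.00789). Neither gene overlapped between the groups. The other 4 members of the family, the near-identical copies of *hsp-16.1* and *hsp-16.48*, differed between deeper and shallower libraries by -3.17 to -5.0 on the log2 scale. They were not called (0.60 to 0.98), and with depth class as a term they were at -0.535 to -0.32, also not called. Without wildtype replicates 1 and 2, *hsp-16.2* lost its call (-0.51, adjusted p = 0.0793), as it did in a fit of all 6 groups (adjusted p = 0.168). Without that pair 4 of the 6, the copies that differed by depth, were called higher and 1 lower. The wildtype libraries left there, replicates 3 and 4, are deeper ones, so these 4 calls cannot be told apart from depth. Among the HSP70 and HSP110 genes, *hsp-70* was at 1186 to 2124 against 765 to 1172 CPM (-0.85, adjusted p = 0.0109) and *hsp-1*, the constitutive HSP70, at 3655 to 6094 against 2366 to 3612 CPM (-0.82, adjusted p = 0.0115). Both lost the call without wildtype replicates 1 and 2 (adjusted p = 0.104 and 0.154), and *hsp-70* in the fit of all 6 groups (adjusted p = 0.168). Of the 6 genes of this list 1 was higher and 2 lower, and 3 and 0 without wildtype replicates 1 and 2. *F44E5.4* of this list also differed by depth class (-1.55). It was at 1.20, and at 0.58 with depth class as a term, not called in either fit. *hsp-110*, a nucleotide exchange factor for HSP70, was higher in rescued animals, at 1210, 1262, 916 and 793 CPM in wildtype and 2243, 2446, 3062 and 1838 CPM in rescued libraries (1.13, SE 0.21, adjusted p = 0.00187), and it lies in the same stretch of chromosome III as *aak-1*.

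In the lists of HSP90 and its co-chaperones, the cytosolic chaperonin and other small heat shock genes, members were lower or not called. The shares called lower were 12.5% to 28.6%, against 21.9% of all genes. HSP90 and its co-chaperones had 4 of 14 lower (28.6%, against 21.9% of all genes) and 0 higher. The lowest were *chn-1*, a ubiquitin ligase (-1.08), and the activator *ahsa-1* (-0.86), and the count of lower genes was 8 without wildtype replicates 3 and 4. The cytosolic chaperonin had 1 of 8 (12.5%) lower (5 without wildtype replicates 3 and 4, 0 without 1 and 2). *hsp-12.6*, a small heat shock gene under DAF-16, was at 8.44, 12.06, 4.39 and 6.57 CPM in wildtype and 0.683, 0.952, 1.36 and 1.07 CPM in rescued animals (log2 fold change -2.98, SE 0.36, adjusted p = 0.00017). With it 3 of 11 other small heat shock genes (27.3%) were lower. *hsf-1*, the heat shock factor itself, was at 31.5 to 52.4 against 42.0 to 60.3 CPM, with overlap (0.04, adjusted p = 0.891).

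Mitochondrial fission and fusion genes, whose products shape the mitochondrial network, did not move together. *eat-3*, the OPA1 orthologue that fuses inner membranes, was at 61.4, 62.7, 58.0 and 76.8 CPM in wildtype and 103, 95, 121 and 110 CPM in rescued libraries (log2 fold change 0.67, SE 0.13, adjusted p = 0.00236). The fission adaptors *fis-2* (53.0 to 78.6 against 25.4 to 33.7 CPM, -1.23, SE 0.18, adjusted p = 0.000432) and *mff-2* (137 to 154 against 64.1 to 87.5 CPM, -0.96, SE 0.13, adjusted p = 0.000266) were lower without overlap. *mff-1* was lower by a small margin (-0.44, adjusted p = 0.0406) that did not pass without wildtype replicate 1, 2 or 4 or any of the rescued replicates (adjusted p from 0.0544 to 0.163). *drp-1*, the fission GTPase, was at 55.5 to 80.4 against 70.9 to 95.6 CPM, with overlap (0.09, adjusted p = 0.674), and *fzo-1*, *mtp-18*, *miro-1* and *spg-7* were not called. *fis-1* fell under the filter on low counts and was not tested. In all 1 of 9 genes was higher and 3 lower at 37°C (2 and 2 without wildtype replicates 1 and 2), and *fis-2* and *mff-2* were lower at 20°C too (-0.90 and -0.73).

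Of the mitochondrial unfolded protein response, 4 of 11 genes were lower and 2 higher. *ubl-5*, a ubiquitin-like co-regulator, was at 194, 194, 242 and 248 CPM in wildtype and 62.1, 74.3, 53.9 and 83.1 CPM in rescued animals (log2 fold change -1.74, SE 0.16, adjusted p = 3.99e-05). The import channel *timm-23* (-0.93) and the mitochondrial DNA-packaging factor *hmg-5* (-0.82) were lower, while the protease *lonp-1* (0.72) and the co-chaperone *dnj-10* (0.74), which also lies in that stretch of chromosome III, were higher. *hsp-6*, mitochondrial HSP70, was at 998, 1046, 557 and 533 CPM in wildtype and 404 to 533 CPM in rescued animals (-0.80, adjusted p = 0.0209). The call was lost without wildtype replicate 1 (0.0556) or 2 (0.0577) or rescued replicate 1 (0.0503) or 4 (0.064) as adjusted p. Without wildtype replicates 1 and 2 together the log2 fold change was only -0.24 (adjusted p = 0.315), and with library size only it was -0.55 (adjusted p = 0.0651). Of the 12 subunits encoded by mitochondrial DNA 5 were lower, led by *COX3* at 7991 to 8569 against 3493 to 5754 CPM (-0.93), and 0 were higher (3 lower without wildtype replicates 3 and 4). In the unfolded protein response of the endoplasmic reticulum 6 of 20 were lower, with the disulfide isomerase *pdi-2* (-1.13) and the BiP orthologue *hsp-3* (-1.03) among them, and 2 higher (11 lower without wildtype replicates 3 and 4).

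Of the further genes the study names, *daf-16*, the FOXO factor downstream of insulin signalling, was at 35.6, 29.6, 22.9 and 25.3 CPM in wildtype and 64.4, 50.1, 58.9 and 49.3 CPM in rescued animals (log2 fold change 0.92, SE 0.17, adjusted p = 0.00188). It did not differ at 20°C by the test (-0.02, adjusted p = 0.958), and the difference between temperatures was called (0.97, adjusted p = 0.0216). *daf-2*, the insulin receptor, was not called (-0.29, adjusted p = 0.434). *W06A11.1* was at 0.605 to 1.29 CPM in wildtype and 0.854 to 2.02 CPM in rescued animals (0.44, SE 0.37, adjusted p = 0.371), so a difference was not detectable at this depth, and *Y7A5A.6* (-0.41, adjusted p = 0.32) and the exportin *xpo-1* (-0.46, adjusted p = 0.1) were not called. Among insulin signalling genes and DAF-16 targets 7 of 21 were higher and 4 lower. *sod-3*, a mitochondrial superoxide dismutase and a common DAF-16 reporter, was at 2.32 to 5.15 against 10.9 to 18.9 CPM (1.95, adjusted p = 0.000314), and *gpdh-1*, which makes glycerol, was higher (2.0). *dod-22* was lower (2.70 to 8.97 against 0.159 to 0.853 CPM, -3.40), as were *pdk-1*, a kinase of the insulin pathway (-1.18), and *mtl-1*, a metallothionein (-1.52). Of 11 insulin-like peptides 1 was higher, *ins-33* (3.16), and 4 lower, among them *ins-7* (-1.14), a ligand of DAF-2, and *ins-31*, which was at 0 CPM in wildtype replicates 1 and 2. Without wildtype replicates 3 and 4, 2 were lower.

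Cuticle collagens were among the genes higher in rescued animals at both temperatures. Of 75 cuticle collagens tested 42 were higher and 4 lower at 37°C (median log2 fold change 1.12), with 6 lower without wildtype replicates 1 and 2. At 20°C 29 were higher and 1 lower, in a comparison with 12.9% of all genes called in either direction. *col-149* was at 0.915, 0.503, 1.64 and 0.282 CPM in wildtype and 18.3, 16, 11.8 and 12 CPM in rescued animals (4.08, SE 0.43, adjusted p = 8.4e-05), and *col-150* was close to it (3.89). *col-97* (-2.26) and *col-88* (-2.24) went the other way. Of 11 other cuticle genes 10 were higher and 0 lower at 37°C (median 2.43), and 1 was called higher at 20°C (median 1.26). The difference between temperatures was called for 0 of the 11, which says little where only 2.44% of all genes were called larger and 0.63% smaller. Among these, *dpy-7*, a collagen of the furrows, was at 2.73, 6.43, 14.1 and 11.2 CPM in the rescued libraries against 0.726 to 2.05 CPM in wildtype (2.67, SE 0.52), and *cut-2*, a cuticlin, at 1.28, 1.03, 8.37 and 3.44 against 0.203 to 0.619 CPM (2.92, SE 0.65). Rescued replicate 3 was the highest of its group for both, and the spread within the group was wide. Of the 4 hypodermis markers tested 3 were higher, *dpy-7*, *elt-3* (1.28) and *col-19* (0.94), the last with overlap.

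Muscle sarcomere genes had 12 of 41 higher and 2 lower (4 lower without wildtype replicates 3 and 4, 1 without 1 and 2), with a median of 0.08. *ttn-1*, a titin-related giant protein, was at 10.5, 11.8, 13.2 and 11.9 CPM in wildtype and 23.4, 30.6, 56.6 and 35.7 CPM in rescued animals (log2 fold change 1.57, SE 0.24, adjusted p = 0.000579). *tni-1*, a troponin I (1.36), *ketn-1*, a kettin orthologue (1.31), and *myo-3*, the body wall myosin heavy chain (1.17), were higher, and *mlc-3*, a myosin light chain, was lower (-1.02). Of the 7 body wall muscle markers 1 was called, *myo-3* (2 without wildtype replicates 1 and 2), and of the 4 pharyngeal muscle markers 1, *myo-5* (0.99), against 2 without replicates 1 and 2 and 1 lower and 0 higher without replicates 3 and 4.

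**Figure D3:**
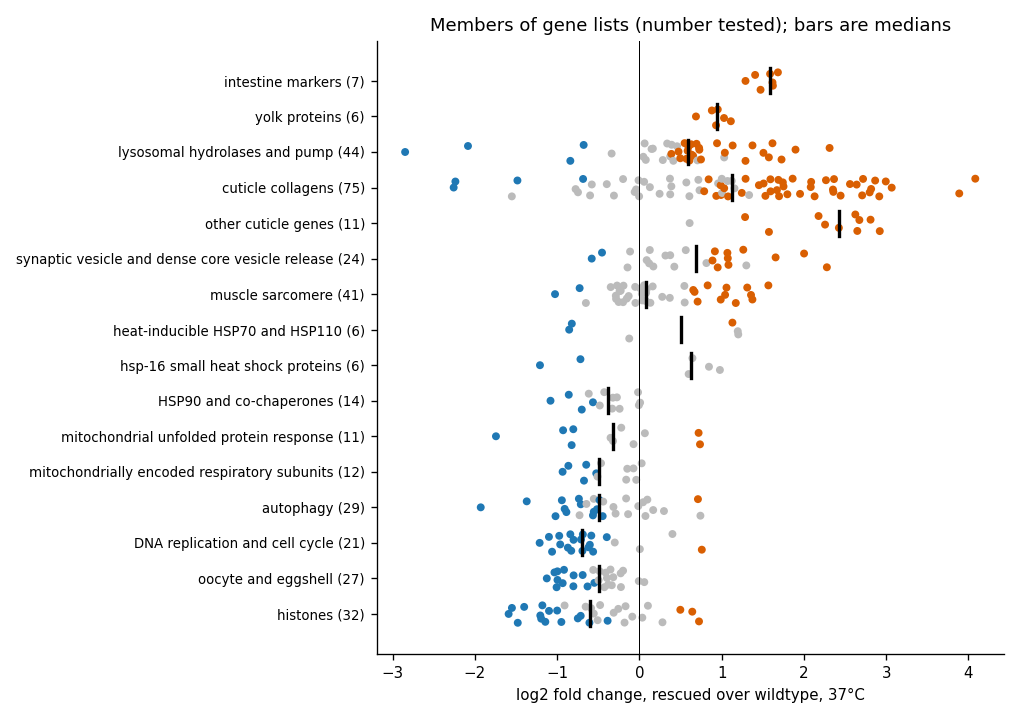
Log2 fold changes of rescued over wildtype at 37°C for the members of 16 gene lists, with 1 point a gene, coloured where called higher (orange) or lower (blue) and grey otherwise, and a bar at each median. Intestine markers, yolk proteins and other cuticle genes lie to the right of 0, and autophagy, replication and oocyte genes mostly to the left. Cuticle collagens run from -2.26 to 4.08 with a median of 1.12.

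Genes of DNA replication and the cell cycle were lower, with 17 of 21 called lower and 1 higher (median log2 fold change -0.69). *pcn-1*, the sliding clamp PCNA, was at 493, 493, 407 and 461 CPM in wildtype and 255, 302, 169 and 202 CPM in rescued libraries (-1.06, SE 0.18, adjusted p = 0.00117). *cyb-3*, a B-type cyclin, was at 563 to 735 against 231 to 389 CPM (-1.21), and *mcm-2*, of the replicative helicase, at 340 to 604 against 175 to 272 CPM (-1.10), both without overlap. The 1 gene called higher was *cye-1*, cyclin E (0.76), and 2 were higher without wildtype replicates 3 and 4. At 20°C 1 of the 21 was called lower and 0 higher (median -0.12), in a comparison with 12.9% of all genes called. The difference between temperatures was called for 1, *rnr-2*, a ribonucleotide reductase subunit (-0.70, adjusted p = 0.0491), and for 0.63% of all genes in that direction. Histone genes had 15 of 32 lower and 3 higher (7 and 3 without wildtype replicates 3 and 4), and many are near-identical copies whose counts are uncertain.

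Oocyte and eggshell genes were called lower for 12 of 27 and higher for 0, and this count followed the wildtype pairs. *cbd-1*, an eggshell protein, was at 2885, 2847, 1754 and 1519 CPM in wildtype replicates 1 to 4 and 1207, 1723, 1216 and 802 CPM in rescued animals (log2 fold change -0.93, SE 0.28, adjusted p = 0.0198), with overlap through replicate 4. *cpg-1*, an eggshell proteoglycan, was at 1501, 1582, 756 and 814 against 617, 868, 556 and 347 CPM (-1.03, adjusted p = 0.0227). Wildtype replicates 1 and 2 were the higher pair for both. Without rescued replicate 3 or 4 or wildtype replicate 1, and for *cpg-1* wildtype replicate 2, these calls were lost (adjusted p from 0.051 to 0.0712). Without replicates 1 and 2 the count of oocyte and eggshell genes called lower was 4, and without replicates 3 and 4 it was 22. Cell type markers followed the pairs too. Germ line markers had 2 of 6 lower and 0 higher, but 2 higher and 0 lower without wildtype replicates 1 and 2, and 3 lower without replicates 3 and 4. Oocyte markers had 2 of 7 lower and 0 higher, with 0 lower without replicates 1 and 2 and 4 lower without replicates 3 and 4. Sperm markers had 1 of 5 higher, with 1 lower and 0 higher without replicates 1 and 2 and all 5 higher without replicates 3 and 4. Embryo markers had 1 of 4 in each direction (0 higher without replicates 1 and 2, 2 lower without 3 and 4). The 27 major sperm protein genes, which are near-identical copies, had 0 calls with a summed level of 18.4 to 195.6 CPM in wildtype and 54.9 to 101.6 CPM in rescued animals, and all 27 were higher without wildtype replicates 3 and 4 while 16 were lower without replicates 1 and 2.

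The wildtype pairs were also compared gene by gene. Among genes with a mean of at least 1 CPM, 60 were at least 10-fold higher in wildtype replicates 3 and 4 than in 1 and 2, and 0 were so in the reverse direction. They included 17 C-type lectins and 3 trypsin-like genes. *clec-197* was at 0, 0, 32.9 and 39.6 CPM in wildtype replicates 1 to 4 and at 0, 0, 0.0388 and 0.0763 CPM in the rescued libraries. Of the other libraries, wildtype replicate 3 at 20°C had 1 of the 60 under 1 CPM, and every remaining library had between 53 and 60 under it. Of the 60 genes 56 were called lower in rescued animals, and 4 of them without wildtype replicates 3 and 4, so these calls rest on 2 libraries. Their cause was not tested. The C-type lectin family as tested had 36 of 95 higher and 29 lower, and without replicates 3 and 4 there were 47 higher and 9 lower. *clec-52*, which does not belong to the 60 genes, was at 1.22 to 4.75 against 12.33 to 31.9 CPM (log2 fold change 2.91, adjusted p = 0.000346).

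**Figure D4:**
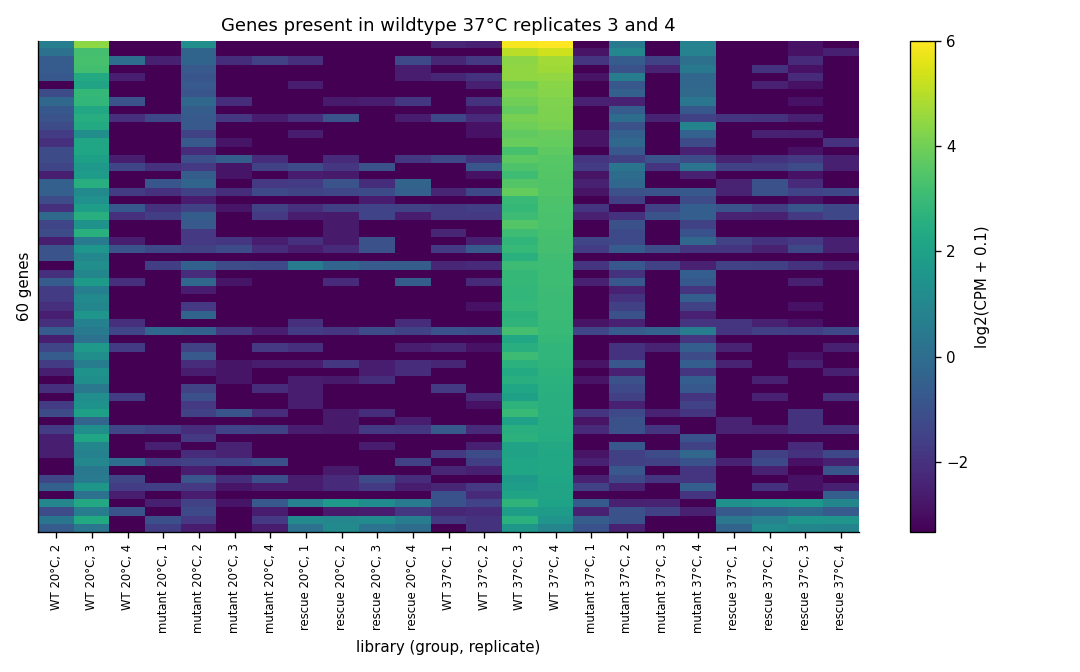
Levels of the 60 genes (rows) in the 23 libraries used (columns), as log2 of CPM plus 0.1, with bright colours for high levels. Wildtype replicates 3 and 4 at 37°C and wildtype replicate 3 at 20°C hold these transcripts at high levels, while 57 or 58 of the 60 are under 1 CPM in each rescued library at 37°C and all 60 in wildtype replicates 1 and 2.

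Among the 12 genes with the largest decrease that averaged at least 50 counts and did not overlap between the groups, several were also low in *hlh-30(tm1978)* mutants. *tts-1*, a long noncoding RNA that associates with ribosomes (X, 1504131 to 1504841, minus strand), was at 837, 973, 372 and 724 CPM in wildtype and 1.96, 2.94, 2.56 and 3.05 CPM in rescued libraries, a difference of 289-fold (log2 fold change -8.17, SE 0.36, adjusted p = 4.36e-07). *adh-1*, an alcohol dehydrogenase, was at 24.9 to 68.3 against 0.840 to 1.19 CPM, or 54.1-fold lower (-5.76, SE 0.37). *F55H12.2* (32.8 to 50.1 against 2.09 to 3.49 CPM, -3.80) and *F45D3.4* (135 to 329 against 19.2 to 24.8 CPM, -3.54) were lower by less. In heated *hlh-30(tm1978)* mutants, which share the mutation but not the transgene, the means were 2.44 CPM for *tts-1*, 1.12 for *adh-1*, 5.0 for *F55H12.2* and 41.7 for *F45D3.4*.

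*dct-8* and *dct-7*, genes under DAF-16 named for effects on germline tumours, were close to absent from rescued animals and from heated *hlh-30(tm1978)* mutants. The 4 heated mutant libraries had 0, 0, 0 and 1 counts of *dct-8* and 3, 0, 1 and 2 counts of *dct-7*. *dct-8* was at 8.54, 13.6, 4.48 and 6.49 CPM in wildtype and 0, 0, 0.0388 and 0.0763 CPM in rescued libraries, which is 697 counts against 2 and a ratio of 265 (95% interval 73.2 to 2200, counting error only). *dct-7* was at 2.75 to 6.25 against 0.0775 to 0.159 CPM (log2 fold change -5.38). Their rescued to wildtype differences were larger in size at 37°C than at 20°C by 5.51 (adjusted p = 0.0282) and 3.27 (adjusted p = 0.0223) on the log2 scale. The insulin-like peptide *ins-19* was at 2.54 to 6.29 against 0 to 0.271 CPM (-5.33), and it was lower at 20°C (-6.09). *B0416.2* (-4.17), *R09E10.13* (-4.63) and the microRNA gene *cel-mir-239b* (-3.67) were lower as well. In heated mutants *R09E10.13* was low too, at 4, 5, 1 and 3 counts. There *ins-19* had 14, 19, 13 and 12 counts, *B0416.2* 24, 15, 9 and 10, and *cel-mir-239b* 81, 47, 36 and 47. *F59B2.12* and *clec-125*, also among the 12 largest, were at 0.0773 to 0.407 CPM in wildtype replicates 1 and 2 and at 7.66 to 63.9 CPM in replicates 3 and 4, and *F59B2.12* was at -1.97 without wildtype replicates 3 and 4 (adjusted p = 0.23), and lost its call without rescued replicate 3 too (-12.05, adjusted p = 0.0627).

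Among the genes with the largest increase, *F11C3.1* (I, 14867924 to 14871467) was at 4.47, 4.99, 5.15 and 5.81 CPM in wildtype and 298, 283, 465.5 and 294 CPM in rescued animals, or 62.6-fold higher (log2 fold change 5.97, SE 0.21, adjusted p = 8.44e-08), and it differed by 6.87 at 20°C. *asp-12*, an aspartyl protease, was at 4.47, 4.1, 6.34 and 1.94 CPM in wildtype and 214, 212, 46.4 and 29.1 CPM in rescued libraries (4.84, SE 0.68), the rescued libraries differing more among themselves. *pgp-1*, an ABC transporter, was at 1.94 to 5.53 against 13 to 56.2 CPM (3.19). *Y16B4A.2* was at 2.51 to 4.17 against 29.8 to 45.6 CPM (3.26), while at 20°C it was not called (0.64, adjusted p = 0.295), and the difference between temperatures was 2.65 (adjusted p = 0.00909). The astacin protease *nas-3* (3.57), the fungus-induced gene *fip-6* (3.33) and *ZK84.1* (3.61) were higher. A lack of overlap between the groups was a condition for choosing the genes with the largest increase, so it is not a separate result for them. *W03B1.3* (3.66), *pqn-73* (3.35) and *oac-51* (3.18) had rescued replicate 3 as their highest library.

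Across the other lists, cytochrome P450 and UDP-glucuronosyl transferase genes had 38 of 107 higher and 8 lower (26 and 11 without wildtype replicates 1 and 2, 58 and 6 without 3 and 4), with *ugt-30* at 2.52. Lysozymes, saposin-like proteins and antimicrobial peptides had 12 of 54 higher, such as *irg-7* (2.51) and the lysozyme *lys-8* (1.39), and 10 lower, such as *lys-10* (-4.30), and 21 and 6 without wildtype replicates 3 and 4. F-box genes had 60 of 215 lower and 10 higher (38 and 15 without wildtype replicates 3 and 4), and the *rbx-1* subunit of CUL-6 type ligases was lower (-1.26), with 2 of 5 such genes lower and 0 higher (1 lower without wildtype replicates 3 and 4). The proteasome had 9 of 33 (27.3%, against 21.9% of all genes) lower and 2 higher (15 and 2 without wildtype replicates 3 and 4, 4 and 2 without 1 and 2). The 2 higher, *pbs-6* (0.51) and *rpn-3* (0.50), lie on chromosome III between 8.2 and 8.8 Mb. Nuclear hormone receptors had 31 of 174 higher (17.8%) and 27 lower (15.5%), against 18.2% and 21.9% of all genes. The desaturases *fat-5* (-1.21), *fat-6* (-0.73) and *fat-7* (-0.93), which make oleate and palmitoleate, were lower and the elongase *elo-2* was higher (1.12), within 4 of 18 higher and 4 lower (9 and 2 without wildtype replicates 3 and 4, 6 and 4 without 1 and 2). Glutathione transferases had 5 of 29 higher and 3 lower (10 higher without wildtype replicates 3 and 4, 3 without 1 and 2), and cytosolic ribosomal proteins 5 of 77 higher and 9 lower (3 higher without 1 and 2). The *pals* genes had 2 of 17 higher and 3 lower (5 lower without 1 and 2, 1 higher and 2 lower without 3 and 4), and metal response genes 2 of 6 higher and 1 lower (1 and 1 without 1 and 2, 4 and 0 without 3 and 4). Of 3 coelomocyte markers *unc-122* was called higher and 0 lower, and without wildtype replicates 1 and 2 there were 0 higher and 1 lower. The share of genes higher was 24.5% on the X chromosome and 14.3% on chromosome I.

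The comparison was repeated at 20°C with other libraries of both genotypes. There, 674 genes were higher and 1068 lower in rescued animals. Of the 5409 calls at 37°C, 1348 (24.9%) were called in the same direction at 20°C, which is 77.4% of the calls at 20°C, with 438 higher and 910 lower. A further 21 were called in opposite directions, 16 of them higher at 37°C. Across the 13482 genes the log2 fold changes at the 2 temperatures correlated with r = 0.636, a value across genes, which are not independent replicates, from 8 and 7 separate libraries.

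The genes with the largest differences between the temperatures included regulators and enzymes of the intestine and others. *ets-4*, an ETS transcription factor, was at 90.8 CPM in wildtype and 36.9 CPM in rescued animals at 20°C (log2 fold change -1.33), and at 10.3 to 15.6 against 32.5 to 38.0 CPM at 37°C (1.45), a difference of 2.80 (adjusted p = 0.00168). *dsc-4*, a lipid transfer protein for lipoproteins, turned from -1.50 to 1.20 (2.74, adjusted p = 0.00312). Both thus crossed from lower to higher. *F28B4.3* went from -0.50 to 2.36 (2.88, adjusted p = 0.00747), and *ctsa-2*, a cathepsin A-like peptidase, from -0.38 to 2.33 (2.74, adjusted p = 0.0182). In the opposite direction, *clp-8*, a calpain, was higher in rescued animals by 2.15 at 20°C (adjusted p = 0.2) and lower by -2.12 at 37°C (-4.25, adjusted p = 0.0151), and *C02F5.14*, in the same stretch of chromosome III, was higher by 4.18 at 20°C and by 1.46 at 37°C (-2.70, adjusted p = 0.0182). The number of genes called as differing between the temperatures moved by more than 1.5 times under most alternatives, from 93 without wildtype replicate 4 at 20°C to 1513 without rescued replicate 4 at 20°C.

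**Figure D5:**
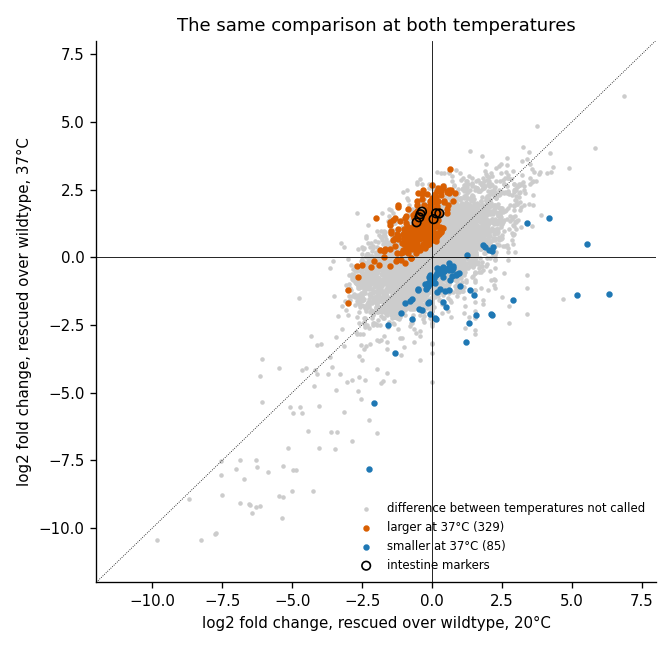
The log2 fold change of rescued over wildtype at 20°C (x axis) and 37°C (y axis) for each of the 13482 genes, with the diagonal dotted. The 329 genes with a larger difference at 37°C (orange) lie above the diagonal, the 85 with a smaller one (blue) below it, and the 7 intestine markers (circles) lie near 0 on the x axis and above 1 on the y axis.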

How the data were processed

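Whole-animal RNA was sequenced as paired 150-base reads. The authors trimmed the reads with Trimmomatic, mapped them with STAR to WBcel235 and counted them per gene with featureCounts of Subread, as their methods and the submitters' processing notes state, and deposited raw counts for 46756 genes without normalization. The strand setting is not given in the sources used here, so a gene that overlaps another, has an antisense partner or has a close copy has an uncertain count. Gene IDs were matched to Ensembl 115, which holds 46581 of them, 43798 with a symbol. The first wildtype file at 20°C was not used, since all 46756 of its counts were identical with the file of replicate 4 at 37°C, whose library its header names, and 23 libraries remained. That library's *hsp-16.2* level, 1568 CPM, was close to that of the other heated wildtype libraries.

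Samples were grouped by genotype, temperature and replicate number in their titles. The filter kept 13482 genes, those averaging 10 counts or more in the libraries used. After TMM scaling, edgeR 4.0.16 (R 4.3.3) gave quasi-likelihood p-values for the 8 libraries, adjusted by Benjamini and Hochberg's method, and 0.05 was the threshold. Log2 CPM for permutation tests (scipy 1.17.1) used a prior count of 2. The difference between temperatures was tested as an interaction in a model of the 6 groups. Totals of 11207383 to 28091186 counts set the precision, and intervals from counts cover counting error only. Alternatives were DESeq2 1.42.0, other scalings (RLE, upper quartile, library size), filters and a 0.01 threshold, depth class as a term, shallower or deeper libraries only, thinned libraries, a replicate block, a fit of all groups, and leaving out each replicate. Leaving out wildtype pairs was chosen after seeing the data. The 2-group test was checked on simulated counts with few changed genes, balanced in direction. That check did not cover many changed genes, a spread that differs between genes, or wildtype pairs as found here.

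Named genes were those of the transgene, those the study names, the 12 with the largest change in each direction (adjusted p under 0.05, average of at least 50 counts, no overlap), at most 4 members of each gene list in each direction and the 5 largest differences between temperatures in each direction. Intestine markers outside this rule, other members of short lists and the genes of the wildtype pairs were named after their values were seen. Members and the 37 gene lists and 10 marker lists, described by counts of calls with no set test, were chosen with earlier results of these data known.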

Additional observations from a re-analysis of the deposited data

Results flagged for a closer look

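Within a group of 4 libraries, 12 of the 168 gene and group combinations examined had 1 library far from the other 3, where chance alone flags about 1 in 20. In rescued animals at 37°C replicate 3 stood apart for *hlh-30* at 50.9 CPM, *F11C3.1* at 465.5 CPM, *unc-122* at 3.80 CPM and *F59B2.12* at 0.0388 CPM, and replicate 2 for *adh-1* at 1.19 CPM, *F45D3.4* at 24.8 CPM and *tni-1* at 55.9 CPM. In wildtype at 37°C replicate 3 stood apart for *F28B4.3* at 23.1 CPM and *vha-6* at 104.2 CPM, replicate 2 for *Y16B4A.2* at 2.51 CPM and *lgg-1* at 1031 CPM, and replicate 4 for *vit-6* at 2231 CPM. These libraries did not make the rescued and wildtype groups overlap for any of the 12. For those named for the largest changes, such as *F11C3.1* and *adh-1*, a lack of overlap was a condition of the choice.

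The rescued minus wildtype difference was more positive at 37°C than at 20°C, by the test of that difference, for *F28B4.3* by 2.88, *ets-4* by 2.80, *dsc-4* by 2.74, *Y16B4A.2* by 2.65, *ges-1* by 2.07, *elt-2* by 2.03, *pept-1* by 1.94, *vit-4* by 1.88, *cpr-6* by 1.87, *act-5* by 1.51, *ifb-2* by 1.39, *daf-16* by 0.97 and *vps-34* by 0.90 on the log2 scale. It was more negative at 37°C for *dct-8* (-5.51), *clp-8* (-4.25), *dct-7* (-3.27), *C02F5.14* (-2.70) and *F45D3.4* (-2.2).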

How the results depend on the processing

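Gene by gene, the alternatives were followed for 84 genes, which leaves out many of those named above. All 77 called genes among these 84 kept their direction under each of the 24 alternatives in which they were tested. Of the 77, 66 stayed past the threshold in all but the fits of deeper or shallower libraries only and the threshold of 0.01. Calls were lost by 38 of the 77 with deeper libraries only (3 wildtype against 1 rescued, whose spread is assumed to be like that of wildtype), by 13 with shallower libraries only and by 9 at 0.01. The count at 37°C was 3419 (1737 lower) with shallower and 1265 (688 higher, 577 lower) with deeper libraries only, 3161 (1332 and 1829) at 0.01, and 3705 higher and 1931 lower with library size only. Leaving out each replicate gave 4362 to 5590 calls.

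The 414 genes called as differing between temperatures depended far more on the setting. DESeq2 gave 958 (676 larger, 282 smaller), no filter 763 (504, 259), depth class as a term 815 (588, 227), the 4 groups alone 251 (218, 33) and a threshold of 0.01 gave 53 (46, 7). Library size only gave 519 larger, and at least 10 counts in every library 148 smaller. Leaving out each replicate gave 93 to 1513 calls, 70 to 1061 larger and 23 to 452 smaller. The total moved by over 1.5 times without wildtype at 20°C replicates 2 (745) or 4 (93), wildtype at 37°C replicates 1 (241) or 2 (215), rescued at 20°C replicates 1 (177), 2 (under 241), 3 (190) or 4 (1513), and rescued at 37°C replicate 3 (216). The cause was not tested.

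Same-numbered libraries at 37°C correlated in their deviations by 0.268, -0.0278, 0.0353 and 0.225, with 2 of 4 best matched to their own number, so the numbers were not taken to pair the samples. The replicate block gave 5534 calls at 37°C (2473 higher, 3061 lower) and 634 between temperatures (463 larger, 171 smaller).

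Genes that were not called turned sign in places. *hsf-1* was -0.026 with depth class as a term, -0.061 with shallower libraries, -0.111 to 0.127 without 1 replicate and -0.067 without wildtype replicates 3 and 4. *Y7A5A.6* was 0.444 with shallower libraries and 0.169 without wildtype replicates 3 and 4, *unc-31* 0.097 with library size only and 0.396 with deeper libraries, *daf-2* 0.342 with deeper libraries and 0.319 without wildtype replicates 1 and 2, and *drp-1* -0.022 to 0.176 without 1 replicate.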

Other observations

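Genes of chromosome III between 8.2 and 8.8 Mb were higher together in rescued animals, a pattern found after the values were seen. Of 119 genes tested there, 72 were called higher and 7 lower at 37°C (median log2 fold change 0.58, or 1.5-fold), and 95 had a value over 0, against 47.7% of all genes. At 20°C, in other libraries, 51 were called higher and 0 lower (median 0.61), and 102 were over 0 against 50.8% of all genes. The medians of the neighbouring steps were -0.03 from 8.0 to 8.2 Mb and -0.20 from 8.8 to 9.0 Mb. In heated *hlh-30(tm1978)* mutants against wildtype the median over the 119 genes was 0.08. The cause was not tested.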
